A study of Caenorhabditis elegans with 15 samples.

Results

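Cysteine cathepsins are papain-family proteases, and 9 of their genes, out of 42048 genes in each deposited table, were followed across 5 groups of whole C. elegans. They are 6 cathepsin B-like genes (cpr-1 to cpr-6), 2 cathepsin Z-like genes (cpz-1 and cpz-2) and the cathepsin L-like gene cpl-1. The genes were chosen by name, without a threshold on any value, but with earlier results of these data known, among them the lower level of cpr-4 under hlh-30 RNAi. All of the counts of members below are therefore descriptions, to be read against the share of all genes. Adjusted p-values of members give the size of a difference against the spread between libraries and are no independent evidence.

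The RNA of 15 libraries was sequenced, 3 per group, from whole bodies on adult day 1 of worms maintained at 20 °C. In 3 groups, SHU47 worms with the genotype label glp-1 were fed HT115(DE3) bacteria with the L4440 vector against hlh-30, atg-2 or atg-18. Their control was SHU47 worms on luc, and a further control was TU3401 worms on luc, with no genotype given. The source labels place the RNAi in neurons: in TU3401 the double-stranded RNA channel SID-1 is restored from the pan-neuronal unc-119 promoter in a sid-1 mutant, so neurons are the main cells open to feeding RNAi, while the RNA measured here came from all tissues. Loss of the Notch receptor GLP-1 leaves worms almost without germ cells, and the glp-1 allele is not stated in the labels. HLH-30 is the worm counterpart of the mammalian lysosome and autophagy regulator TFEB, and ATG-2 and ATG-18 act together in lipid transfer to the growing autophagosome. Whether the 3 libraries of each group were grown separately is not stated by the labels; p-values therefore speak of how far these libraries spread, and that spread can be technical.

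Cysteine cathepsins are made as inactive proenzymes, are activated by acid pH in lysosomes and cut the proteins delivered there by endocytosis and autophagy. Some are also secreted, in worms into the gut lumen, where they digest bacterial protein. The intestine is the major digestive and lysosome-rich tissue of the worm, and cystatins are the inhibitors that bind and block these proteases.

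Depth was 17496624 to 25599148 reads per library, and members took 109739 to 179627 reads in glp-1 libraries and 49115 to 60571 in TU3401 libraries. On average, no RNAi target was lower under its own RNAi label. hlh-30 stood at 126, 293 and 328 RPKM (a read count corrected for the gene's length and the library's depth) in libraries labelled hlh-30 RNAi, against 54.6, 44.5 and 50.9 RPKM in glp-1 luc libraries. Group names follow the labels and do not state that a target was lowered. The germline marker list (23 of 23 genes found) summed to 21.3 to 346 RPKM in glp-1 libraries and to 14540 to 14858 RPKM in TU3401 libraries. Within glp-1 worms, libraries numbered 1 of the hlh-30, atg-2 and luc groups held more of it (225, 346 and 144 RPKM) than the other 9 (21.3 to 27.3 RPKM).

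In glp-1 worms the cathepsin RNA was dominated by cpr-6 and cpl-1. cpr-6, a cathepsin B-like gene, made up 49.5% of the members' summed RPKM under hlh-30 RNAi and 46.0% on luc, and cpl-1, a protease needed for yolk processing and embryonic development, made up 32.8% and 33.1% of it in the same groups. In TU3401 worms cpl-1 had 40.03% and cpr-6 37.1%. All 9 members together averaged 5623 ± 172 RPKM under hlh-30 RNAi, 6754 ± 111.8 under atg-2 RNAi, 7088 ± 142 under atg-18 RNAi, 6478 ± 314 in glp-1 luc and 2176 ± 61.0 in TU3401 luc (SD, n = 3). As a share of all reads this was 0.592 to 0.627% in hlh-30 RNAi libraries, 0.715 to 0.739% in atg-2 RNAi libraries, 0.744 to 0.773% in atg-18 RNAi libraries, 0.676 to 0.736% in glp-1 luc libraries and 0.224 to 0.237% in TU3401 libraries. In bulk RNA, fewer cells of a type and less RNA per cell cannot be told apart.

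**Figure D1:**
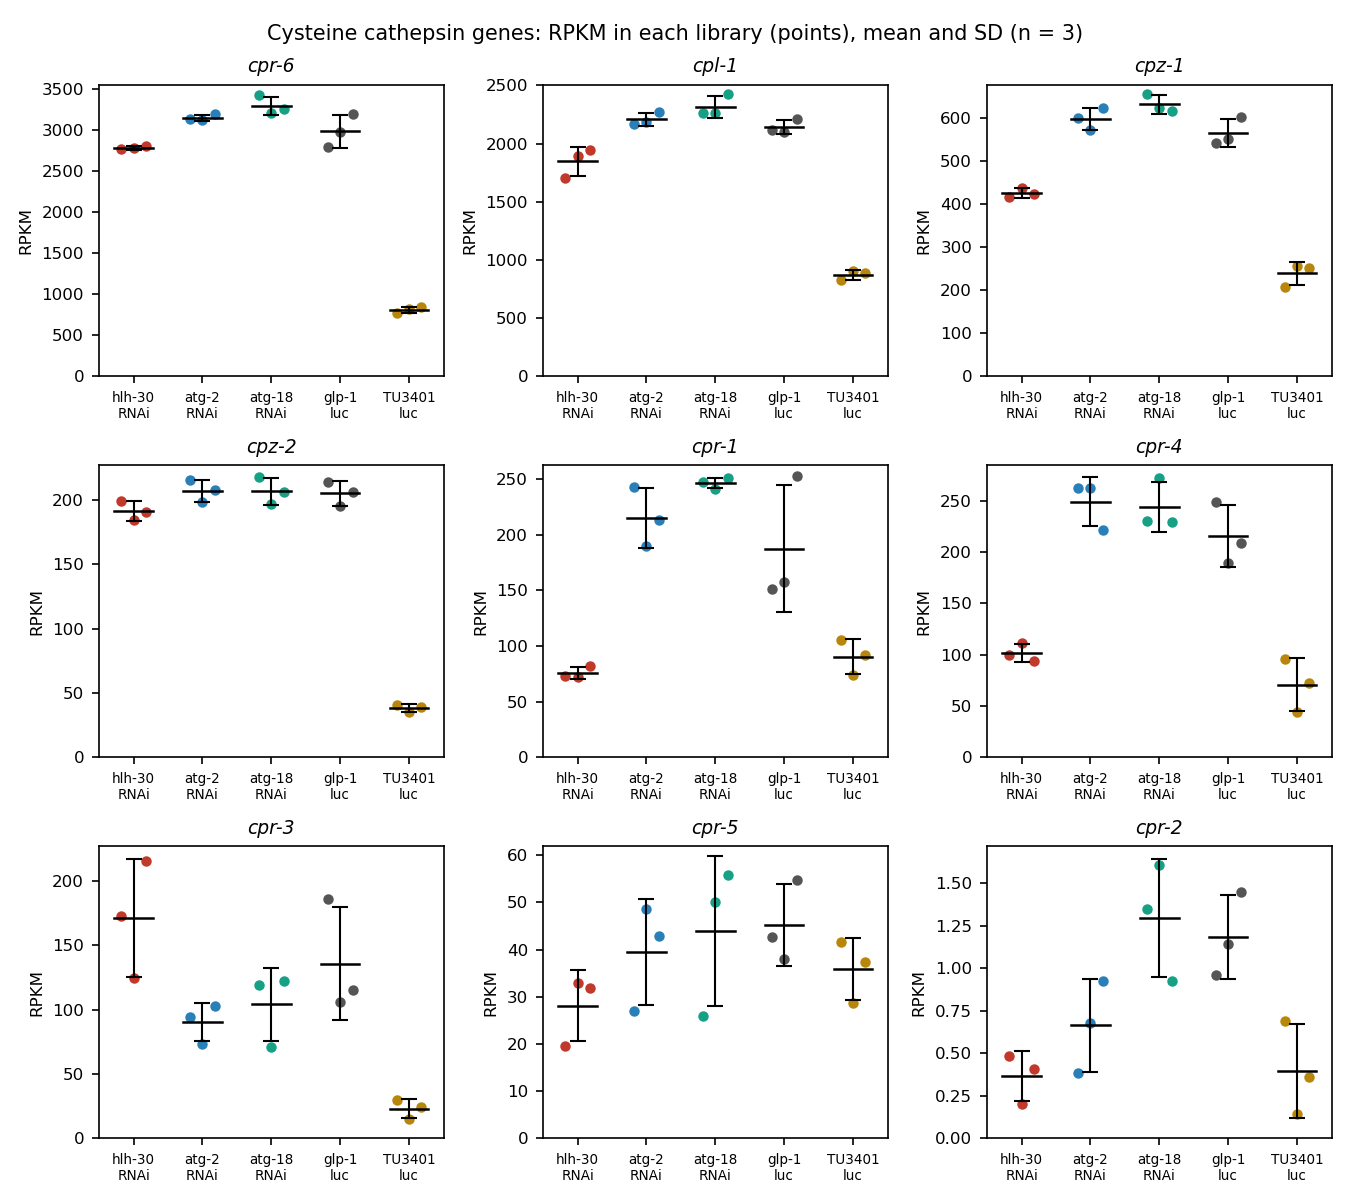
RPKM of each of the 9 cysteine cathepsin genes (1 panel per gene, linear axis from 0) in each library of the 5 groups, with points for libraries 1 to 3 from left to right, a black bar for the mean and whiskers for the SD (n = 3). cpr-1, cpr-4, cpz-1 and cpl-1 are lower in all 3 hlh-30 RNAi libraries than in the other 9 glp-1 libraries. The test calls 7 genes (all but cpr-2 and cpr-5) higher in glp-1 luc than in TU3401 libraries.

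The order of the members by RPKM, which is a level per gene length, was the same at the top in each of the 4 glp-1 groups. cpr-6 came first, cpl-1 next and then cpz-1, and no library of one reached the range of the next within a group. Below them, cpr-4, cpz-2, cpr-1 and cpr-3 formed a middle tier in glp-1 luc worms in which neighbours overlapped, and cpr-5 and then cpr-2 lay below without overlap. In hlh-30 RNAi worms this middle tier was spread out: cpz-2 and cpr-3 overlapped, while cpr-4 and then cpr-1 lay below them without overlap. In TU3401 worms cpl-1 and cpr-6 overlapped at the top, cpz-1 followed, and cpz-2, cpr-5 and cpr-3 were near each other at the lower end, with overlap between neighbours. cpr-2 was close to the limit of detection, with 3 to 38 reads per library, and passed the filter of a mean of 1 RPKM only in the fit of atg-18 RNAi with luc. The other 8 members passed it in all 7 comparisons.

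The comparison of glp-1 luc with TU3401 luc worms asked how the family stands in animals without a germline. Of the 9 genes, 7 rose on the deposited scale, cpr-3 and cpz-2 by the largest ratios, and cpr-5 did not pass. cpr-1, known as a protease gene of the gut, had 151, 158 and 253 RPKM in glp-1 luc libraries, against 106, 74.1 and 91.7 RPKM in TU3401 libraries. cpr-3, a cathepsin B-like gene, had 186, 106 and 115 RPKM in glp-1 luc libraries, against 29.998, 15.3 and 24.1 RPKM in TU3401 libraries. cpr-4, whose product is a secreted cathepsin B, had 249, 189 and 209 RPKM in glp-1 luc libraries, against 96.0, 43.96 and 72.6 RPKM in TU3401 libraries. For these 3 genes every glp-1 luc library lay above every TU3401 library. cpr-5, another cathepsin B-like gene, had 42.7, 37.9 and 54.8 RPKM in glp-1 luc libraries, against 41.5, 28.6 and 37.4 RPKM in TU3401 libraries, and the groups overlapped. cpr-6 had 2784, 2972 and 3185 RPKM in glp-1 luc libraries, against 768, 814 and 838 RPKM in TU3401 libraries. cpr-2 had 0.961, 1.14 and 1.45 RPKM in glp-1 luc libraries, against 0.691, 0.143 and 0.359 RPKM in TU3401 libraries, too few reads for the test.

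The cathepsin Z-like and L-like genes also lay higher in every glp-1 luc library than in any TU3401 library. cpz-1, needed for molting, had 542, 552 and 604 RPKM in glp-1 luc libraries, against 208, 257 and 253 RPKM in TU3401 libraries. cpz-2 had 214, 195 and 206 RPKM in glp-1 luc libraries, against 40.6, 35.0 and 38.9 RPKM in TU3401 libraries. cpl-1 had 2115, 2097 and 2212 RPKM in glp-1 luc libraries, against 827, 902 and 884 RPKM in TU3401 libraries. The ratio of group means was 5.87 for cpr-3 and 5.38 for cpz-2, then 3.70 for cpr-6, 3.04 for cpr-4, 2.46 for cpl-1, 2.37 for cpz-1 and 2.07 for cpr-1, and 1.26 for cpr-5. Even the 2 cathepsin Z-like genes thus differed in size, with log2 differences of 2.40 ± 0.07 for cpz-2 and 1.24 ± 0.09 (SE) for cpz-1.

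By limma on log2(RPKM + 1) with Benjamini-Hochberg adjustment over all genes, 7 of the 8 members tested were called higher at an adjusted p under 0.05, against 41.4% of all 13569 genes, and 3 of them with scaling on neuronal and muscle markers (below). The adjusted p was 0.0030 for cpr-1, 0.00065 for cpr-4, at most 9.22e-05 for the other 5 and 0.115 for cpr-5. For 7 of the 8, all glp-1 luc libraries lay above all TU3401 libraries, against 41.6% of genes. The median member difference was 1.47, against -0.19 over all genes. The authors' deposited table has all 9 at a false discovery rate under 0.05, as it has 13737 genes.

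These differences are relative to the whole library. Markers of other tissues moved with the result: the intestinal list (19 of 20 genes found, yolk protein genes among them) summed to 32009 to 34713 RPKM in glp-1 luc libraries and 11954 to 13626 RPKM in TU3401 libraries. Body wall muscle markers summed to 14644 to 17725 RPKM in glp-1 luc libraries and 4694 to 5452 RPKM in TU3401 libraries. Pan-neuronal markers summed to 1158 to 1322 RPKM in glp-1 luc libraries and 912 to 994 RPKM in TU3401 libraries. Coelomocyte markers (4 of 5 found) went the other way in sum, with 29.1 to 31.8 RPKM in glp-1 luc libraries and 38.02 to 46.1 RPKM in TU3401 libraries. By gene, however, 3 of the 4 tested were called higher and 1 lower, with a median of 0.95. Hypodermal markers summed to 5742 to 6860 RPKM in glp-1 luc libraries and 2031 to 2292 RPKM in TU3401 libraries, but 10 of the 14 tested genes of that list were called lower and 4 higher. With libraries scaled to an equal pooled sum of the neuronal and muscle lists, most of which is muscle RNA, all genes shifted to a median of -1.45, and the split of called genes from 5615 of 12175 higher to 1710 of 11098 higher. On that scale, with 14755 genes tested, cpr-3 (1.03), cpr-6 (0.37) and cpz-2 (0.91) were still called higher, cpr-5 (-1.16), cpz-1 (-0.27) and cpl-1 (-0.22) were called lower, and cpr-4 (0.15) and cpr-1 (-0.49) were not called. Relative to that scale's median of all genes, the members lay between 0.29 (cpr-5) and 2.49 (cpr-3). With quantile normalization the median of all genes was 0.29, and all 8 tested members were called higher, as were 6628 of 13569 genes. The part of tissue share in the higher levels was not tested.

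The comparison of hlh-30 RNAi with luc in glp-1 worms asked whether RNAi aimed at HLH-30 in neurons changes cathepsin RNA in the whole animal. Among the 8 tested members, cpr-1 and cpr-4 had the lowest ratios to luc, 0.405 and 0.472 of its mean, cpr-5 stood at 0.623 and cpz-1 at 0.752 of it, and the abundant cpl-1 and cpr-6 at 0.862 and 0.933. cpr-4 had 99.4, 111.8 and 94.3 RPKM in hlh-30 RNAi libraries, against 249, 189 and 209 RPKM in glp-1 luc libraries, without overlap. cpr-1 had 73.1, 72.2 and 82.2 RPKM in hlh-30 RNAi libraries, against 151, 158 and 253 RPKM in glp-1 luc libraries. Its luc libraries were spread widely, library 3 being far above the other two, and all lay above the hlh-30 RNAi libraries. cpz-1 had 416, 438 and 424 RPKM in hlh-30 RNAi libraries, against 542, 552 and 604 RPKM in glp-1 luc libraries.

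Of the other 5 tested members, 3 overlapped between the groups. cpr-5 had 19.5, 32.9 and 31.9 RPKM in hlh-30 RNAi libraries, against 42.7, 37.9 and 54.8 RPKM in glp-1 luc libraries. cpl-1 had 1705, 1890.0 and 1944 RPKM in hlh-30 RNAi libraries, against 2115, 2097 and 2212 RPKM in glp-1 luc libraries. Neither gene's groups overlapped, although for cpr-5 the gap between the nearest libraries (32.9 and 37.9 RPKM) was small. cpr-6 had 2759.8, 2779 and 2806 RPKM in hlh-30 RNAi libraries, against 2784, 2972 and 3185 RPKM in glp-1 luc libraries. cpz-2 had 199, 184 and 190.4 RPKM in hlh-30 RNAi libraries, against 214, 195 and 206 RPKM in glp-1 luc libraries. cpr-3 had 173, 125 and 216 RPKM in hlh-30 RNAi libraries, against 186, 106 and 115 RPKM in glp-1 luc libraries. These last 3 overlapped, and cpr-3 was the single tested member whose mean was higher under hlh-30 RNAi. cpr-2 had 0.483, 0.203 and 0.409 RPKM in hlh-30 RNAi libraries, against 0.961, 1.14 and 1.45 RPKM in glp-1 luc libraries, which is 4 to 12 against 19 to 33 reads and below the filter.

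On the log2 scale the differences were -1.25 ± 0.19 (SE) for cpr-1, -1.07 ± 0.11 for cpr-4, -0.68 ± 0.22 for cpr-5, -0.41 ± 0.06 for cpz-1, -0.22 ± 0.06 for cpl-1, -0.10 ± 0.06 each for cpr-6 and cpz-2, and 0.34 ± 0.26 for cpr-3. Of the 8 tested members 7 lay below 0, with a median of -0.31 against -0.01 over all genes. Their libraries were lower without overlap for 5 of the 8, against 8.24% of all genes, and 1 member, cpr-4, was called lower, against 0.0800% of the 12494 genes tested. The fall of cpr-4 was known when the family was chosen, so it is given as a description. Its call was lost when any of the 3 hlh-30 RNAi libraries or luc library 3 was left out and in 5 other settings, and the log2 difference over all 16 settings was -1.16 to -0.95. cpr-1, with the larger difference, was not called (limma, adjusted p = 0.105), nor was cpz-1 (adjusted p = 0.0898). For cpr-6 the 95% interval was -0.23 to 0.04, which leaves out a change as large as that of cpr-4. In the authors' deposited table cpr-1 was at -1.30 with a false discovery rate of 7.96e-04 and cpr-4 at -1.06 with 8.27e-05, 2 of 93 genes under 0.05, while cpz-1 had 0.0931.

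Intestinal markers overlapped between the same groups: they summed to 31953 to 34854 RPKM in hlh-30 RNAi libraries and to 32009 to 34713 RPKM in glp-1 luc libraries. Hypodermal markers (16 of 16 found), of the tissue under the cuticle, summed to 6402 to 7393 RPKM in hlh-30 RNAi libraries and to 5742 to 6860 RPKM in glp-1 luc libraries. Without the libraries numbered 1, which hold the extra germline RNA, cpr-4 was at -0.95, cpr-1 at -1.36 and cpz-1 at -0.42, and no member was called; 1 gene of 12364 was then called.

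Under RNAi against the autophagy genes no member was called. Under atg-2 RNAi, cpr-1 had 243, 189 and 212.8 RPKM, against 151, 158 and 253 RPKM in glp-1 luc libraries. cpr-4 had 263, 263 and 221 RPKM under atg-2 RNAi, against 249, 189 and 209 RPKM in glp-1 luc libraries. Both overlapped with luc, with means above it. cpr-3 had 94.3, 73.6 and 103 RPKM under atg-2 RNAi, against 186, 106 and 115 RPKM in glp-1 luc libraries, without overlap. It was 1 of 8 tested members without overlap either way, against 13.4% of all genes. Its log2 difference was -0.55 ± 0.23 (limma, adjusted p = 0.641). The other 5 tested members had log2 differences from -0.21 (cpr-5) to 0.08 (cpz-1). No member was called, against 0% of the 12548 genes tested by limma, with 961 genes at an unadjusted p under 0.05 and 2 genes in the authors' deposited table. The intervals still allow changes, from -0.25 to 0.72 for cpr-1 and from -0.07 to 0.49 for cpr-4.

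Under atg-18 RNAi 7 of the 9 members had log2 differences above 0 and 2 below 0, while 51.8% of all genes lay below 0. The 7 include cpr-2 (0.06 ± 0.18, SE), which was close to the limit of detection. cpr-1 had 247, 241 and 250.5 RPKM under atg-18 RNAi, against 151, 158 and 253 RPKM in glp-1 luc libraries, and overlapped only through luc library 3. cpz-1 had 656, 623 and 617 RPKM under atg-18 RNAi, against 542, 552 and 604 RPKM in glp-1 luc libraries. cpr-6 had 3418, 3204 and 3253 RPKM under atg-18 RNAi, against 2784, 2972 and 3185 RPKM in glp-1 luc libraries. cpl-1 likewise lay above luc in every library, with 2261, 2265 and 2428 RPKM under atg-18 RNAi, against 2115, 2097 and 2212 RPKM in glp-1 luc libraries. These 3 of 9 members were higher without overlap, against 5.58% of all genes, with log2 differences of 0.16 ± 0.06, 0.14 ± 0.06 and 0.11 ± 0.05. No member was called by limma, against 0% of the 12441 genes tested, with 850 genes at an unadjusted p under 0.05 and 44 genes in the authors' deposited table. The median member difference was 0.11, against -0.01 over all genes.

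The direct contrasts set hlh-30 RNAi against each autophagy RNAi, in 1 fit of the 12 glp-1 libraries. They use the same hlh-30 RNAi libraries as the comparison with luc and as each other, so they do not repeat it independently. cpr-1 stood at 73.1, 72.2 and 82.2 RPKM in hlh-30 RNAi libraries, against 189 to 243 RPKM in atg-2 RNAi libraries and 241 to 250.5 RPKM in atg-18 RNAi libraries. The other two groups were 2.83 and 3.25 times as high in mean, and no library of theirs came near the hlh-30 RNAi range. cpr-4 had 99.4, 111.8 and 94.3 RPKM in hlh-30 RNAi libraries, against 221 to 263 RPKM in atg-2 RNAi libraries and 231, 272 and 229 RPKM in atg-18 RNAi libraries. cpz-1 had 416 to 438 RPKM in hlh-30 RNAi libraries, against 600.0, 573 and 624 RPKM in atg-2 RNAi libraries and 617 to 656 RPKM in atg-18 RNAi libraries. These 3 genes were called lower in both contrasts by limma.

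Against atg-2 RNAi the log2 differences were -1.49 ± 0.16 for cpr-1 (limma, adjusted p = 0.0024), -1.28 ± 0.11 for cpr-4 (adjusted p = 0.0010) and -0.49 ± 0.05 for cpz-1 (adjusted p = 0.0021). So 3 of 8 members were called lower, against 0.433% of all 12460 genes, and 5 of 8 were lower without overlap, against 8.27%. Against atg-18 RNAi they were -1.69 ± 0.16 for cpr-1 (adjusted p = 0.00077), -1.25 ± 0.11 for cpr-4 (adjusted p = 0.00052) and -0.57 ± 0.05 for cpz-1 (adjusted p = 0.00054). There cpl-1 (-0.33 ± 0.05, adjusted p = 0.0197) and cpr-6 (-0.24 ± 0.05, adjusted p = 0.0441) were called as well, 5 of 8 members against 0.554% of genes, and 5 of 8 were lower without overlap, against 6.85%. The calls of cpr-1 and cpr-4 held in 16 of 16 other settings of each contrast and that of cpz-1 in 15 of 16, the exception being libraries scaled on neuronal and muscle genes (adjusted p = 0.0928 and 0.0670). The call of cpr-6 was lost when any 1 library of its contrast was left out (adjusted p = 0.0790 to 0.155). That of cpl-1 was lost without hlh-30 RNAi library 1 or without atg-18 RNAi library 1 or 3, at adjusted p up to 0.0924.

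The abundant pair showed smaller log2 differences. cpl-1 had 1705, 1890.0 and 1944 RPKM in hlh-30 RNAi libraries, against 2167, 2186 and 2272 RPKM in atg-2 RNAi libraries and 2261, 2265 and 2428 RPKM in atg-18 RNAi libraries. cpr-6 had 2759.8 to 2806 RPKM in hlh-30 RNAi libraries, against 3133, 3115 and 3186 RPKM in atg-2 RNAi libraries and 3204 to 3418 RPKM in atg-18 RNAi libraries. Neither gene's groups overlapped. Against atg-2 RNAi cpl-1 (-0.26 ± 0.05, just short of passing the test) and cpr-6 (-0.18 ± 0.05, adjusted p = 0.129) were not called.

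cpr-3 was the one tested member with positive differences. It had 173, 125 and 216 RPKM in hlh-30 RNAi libraries, against 94.3, 73.6 and 103 RPKM in atg-2 RNAi libraries and 118.7, 70.9 and 122.3 RPKM in atg-18 RNAi libraries. All hlh-30 RNAi libraries lay above all 6 others, the lowest by a small margin, and in each of the 3 groups library 2 was the lowest. In each contrast cpr-3 was 1 of 8 tested members higher without overlap. Of all genes, 9.44% were so against atg-2 RNAi and 6.73% against atg-18 RNAi. The log2 differences were 0.89 ± 0.27 (limma, adjusted p = 0.18) and 0.72 ± 0.27 (adjusted p = 0.359). Same-numbered libraries of these groups varied together, and with the number as a block cpr-3 was called higher against atg-2 RNAi (adjusted p = 0.0156) and against atg-18 RNAi (adjusted p = 0.0433). With that block 7 members were called against atg-2 RNAi, cpl-1 (0.0032), cpr-6 (0.0428) and cpz-2 (0.0407) being the further lower ones, among 757 called genes of 12460. Against atg-18 RNAi 6 members were called with the block, among 506 genes.

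cpr-5 and cpz-2 did not pass in either direct contrast without the block. cpr-5 had 19.5, 32.9 and 31.9 RPKM in hlh-30 RNAi libraries, against 27.04, 48.6 and 42.9 RPKM in atg-2 RNAi libraries and 25.9, 50.1 and 55.8 RPKM in atg-18 RNAi libraries. In all 3 RNAi groups library 1 was the low one, which did not hold for luc. cpz-2 had 199, 184 and 190.4 RPKM in hlh-30 RNAi libraries, against 216, 198 and 208 RPKM in atg-2 RNAi libraries and 218, 197 and 206 RPKM in atg-18 RNAi libraries. Its groups overlapped, and in each of them library 1 was the highest and library 2 the lowest. Between the atg-2 and atg-18 RNAi groups no member was called, against 0.0161% of genes, and the tested members differed by -0.20 (cpr-1) to 0.03 (cpr-4) on the log2 scale, the signs of cpr-4, cpr-5 and cpz-2 changing between settings.

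**Figure D2:**
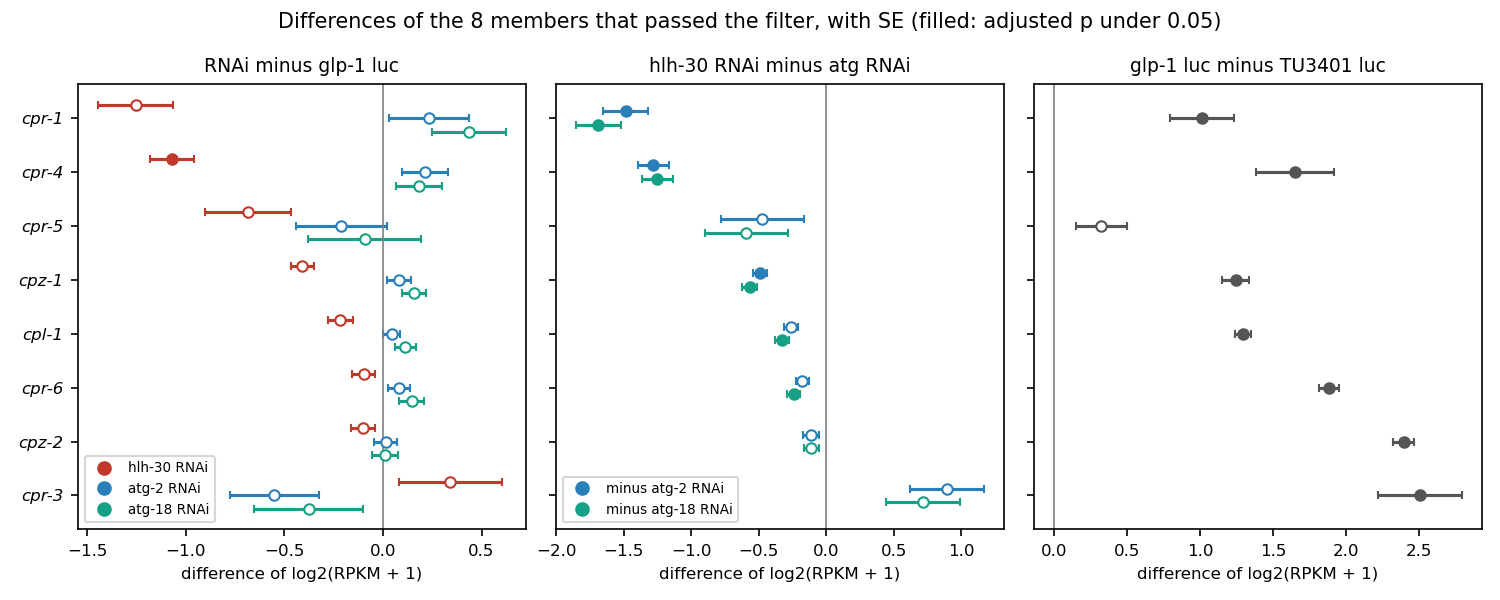
Differences of log2(RPKM + 1) for the 8 members that passed the filter, as points with the SE as whiskers, for each RNAi group minus glp-1 luc (left), hlh-30 RNAi minus each autophagy RNAi (middle) and glp-1 luc minus TU3401 luc (right); filled points have a limma adjusted p under 0.05. cpr-1 and cpr-4 lie between -1.69 and -1.07 in each of the hlh-30 RNAi differences, while the atg-2 and atg-18 RNAi differences from luc include no filled point.

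Other genes around the cathepsins came from lists chosen with earlier results of these data known, so they are described by counts and medians. In glp-1 luc against TU3401 luc, 41.4% of all 13569 genes were called higher and 6560 genes lower. When scaled on neuronal and muscle genes, 11098 of 14755 genes were called, 1710 of them higher. Among other papain-family genes, 11 of the 19 found were tested. Of these, 10 were called higher and 0 lower in glp-1 luc than in TU3401 worms, with a median of 1.5. With that scaling 4 were called higher and 3 lower. Y40H7A.10 averaged 264 ± 10.96 RPKM in glp-1 luc and 52.3 ± 1.31 RPKM in TU3401 luc, and R07E3.1 averaged 136 ± 5.23 RPKM in glp-1 luc and 32.1 ± 1.35 RPKM in TU3401 luc. Both cystatin genes found were called higher, 1 of them with that scaling: cpi-1 averaged 2722 ± 114 RPKM in glp-1 luc and 572 ± 26.3 RPKM in TU3401 luc, and cpi-2 averaged 995 ± 46.5 RPKM in glp-1 luc and 416 ± 25.8 RPKM in TU3401 luc. Of other lysosomal proteases 13 of 13 were called higher (7 of 13 with that scaling), with a median of 1.83, led by the aspartyl protease gene asp-3 (2.47) and the carboxypeptidase gene F13D12.6 (2.22).

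Of other lysosomal hydrolases 20 of 21 were called higher and 1 lower in glp-1 luc (12 and 3 with that scaling), the extremes being asm-3 (3.39, a sphingomyelinase) and ppt-1 (-0.29, a palmitoyl-protein thioesterase). The list of lysosomal membrane and proton pump genes was more mixed, with 21 of 30 called higher and 7 lower, but 0 higher and 26 lower with that scaling. There the pump subunit gene vha-6 was at 1.63 and vha-18 at -4.85. Regulators had 5 of 10 higher and 3 lower, and 0 and 6 with that scaling. Cysteine proteases of the caspase and calpain families, which are no lysosomal enzymes, had 2 of 6 higher (clp-4 at 2.03) and 4 lower, among them the cell death caspase gene ced-3 at -6.22; with that scaling 1 of 7 was higher and 6 lower.

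Under hlh-30 RNAi, 0 genes of these 7 lists were called against luc by limma. The close relatives leaned lower against luc too. Other papain-family genes had a median of -0.18 with 10 of 11 below 0, and other lysosomal proteases -0.12 with 9 of 13. Regulators had -0.18 with 8 of 10. Cystatins (0.14, 0 of 2 below 0) and other lysosomal hydrolases (0.03, 8 of 21) did not. This lean from luc was not particular to hlh-30 RNAi. Papain-family genes had -0.09 (9 of 11 below 0) under atg-2 RNAi and -0.07 (7 of 11) under atg-18 RNAi. Other lysosomal proteases had -0.13 (11 of 13) under atg-2 RNAi and -0.12 (9 of 13) under atg-18 RNAi. Under hlh-30 RNAi the tested members had -0.31 with 7 of 8 below 0, and all genes -0.01 with 53.2% below 0. Against atg-2 RNAi, 3 of 21 lysosomal hydrolases were called lower, and against atg-18 RNAi 4 of 21, but 1 of 21 in each when scaled on neuronal and muscle genes. The lipase gene lipl-1 averaged 14.1 ± 2.17 RPKM in hlh-30 RNAi worms, against 31.9 ± 1.77 RPKM in atg-2 RNAi worms (-1.13, limma adjusted p = 0.0012) and 29.7 ± 2.06 RPKM in atg-18 RNAi worms (-1.03, adjusted p = 0.0013). The DNase II gene nuc-1 averaged 255 ± 5.37 RPKM in hlh-30 RNAi worms and 329.8 ± 16.3 RPKM in atg-2 RNAi worms (-0.37, adjusted p = 0.0059). lipl-2, another lipase gene, averaged 113.1 ± 9.77 RPKM in hlh-30 RNAi worms and 155 ± 6.46 RPKM in atg-18 RNAi worms (-0.45, adjusted p = 0.0143). Of the other papain-family genes, cystatins and other lysosomal proteases, 0 were called in either contrast. Their medians were -0.04, 0.19 and 0.08 against atg-2 RNAi and -0.12, 0.11 and 0.05 against atg-18 RNAi, beside -0.37 and -0.45 for the 8 tested members and -0.01 for all genes in both. Among regulators hlh-30 itself was called higher (2.14 and 2.21).

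The papain-family gene with the highest level outside the 9 was F57F5.1, named cpr-9 in RefSeq and singled out after its values were seen. It averaged 1735 ± 91.1 RPKM in hlh-30 RNAi, 2024 ± 134 RPKM in glp-1 luc and 705 ± 28.9 RPKM in TU3401 luc. Under atg-2 RNAi it averaged 1784 ± 80.2 RPKM and under atg-18 RNAi 1817 ± 62.3 RPKM. Its log2 difference from luc was -0.22 for hlh-30 RNAi, -0.18 for atg-2 RNAi and -0.15 for atg-18 RNAi. That of hlh-30 RNAi from atg-2 RNAi was -0.04, and none of these was called by limma. cpr-5 lies next to 2 papain-family genes in the annotation, W07B8.4 and W07B8.1 (cpr-8 in RefSeq). W07B8.1 averaged 7.28 ± 1.32 RPKM in hlh-30 RNAi and 9.85 ± 1.04 RPKM in glp-1 luc. In atg-2 RNAi it averaged 8.59 ± 2.36 RPKM and in atg-18 RNAi 8.64 ± 2.12 RPKM. W07B8.4 had at most 0.227 RPKM in any library. The sources used here do not say how reads that fit several family members were assigned.

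**Figure D3:**
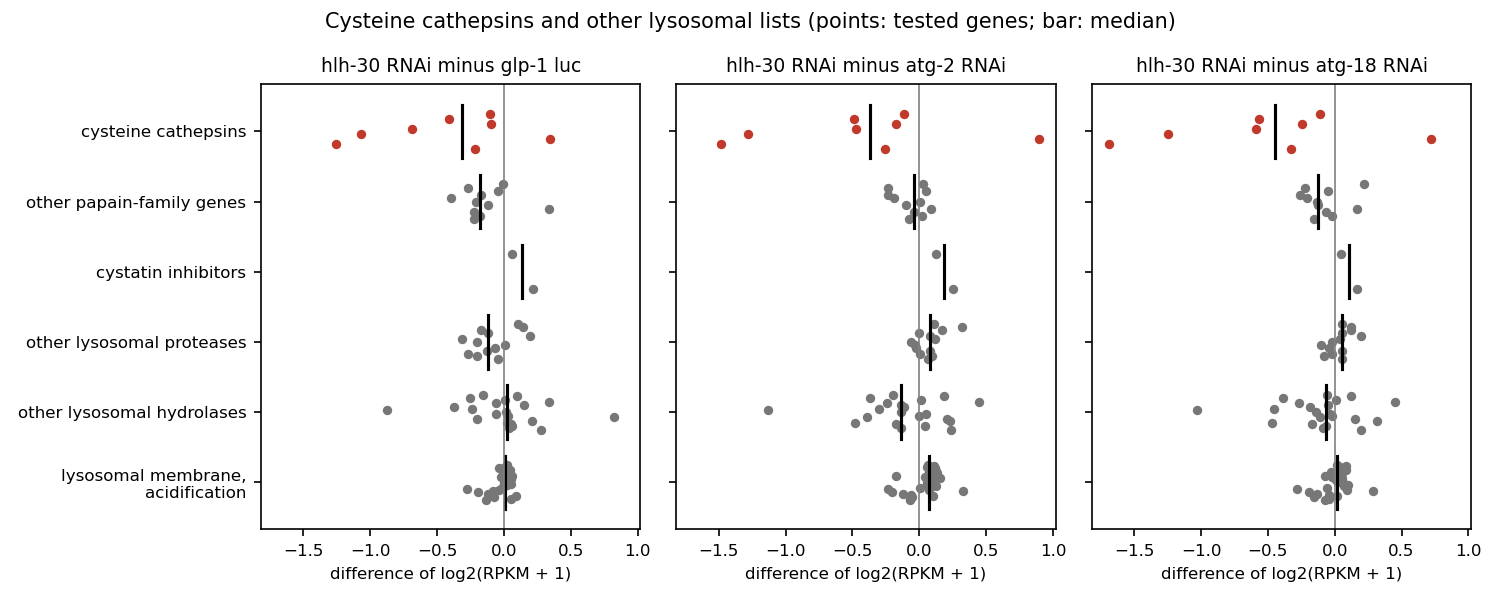
Differences of log2(RPKM + 1) for the tested genes (points) of the cysteine cathepsins (red) and of 5 other lists (grey), with the list median as a black bar, for hlh-30 RNAi minus glp-1 luc (left), minus atg-2 RNAi (middle) and minus atg-18 RNAi (right), all on 1 scale. The cathepsin medians are -0.31, -0.37 and -0.45, with cpr-1 and cpr-4 the 2 points at the far left and cpr-3 the point above 0.

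The members did not vary as one block across the 12 glp-1 libraries. Correlations here are descriptions over libraries that share the 4 conditions, with no test. Among the 12459 other genes of the fit, cpz-1 was the most like cpr-1 and cpr-1 the most like cpz-1 (Pearson r = 0.98 on log2(RPKM + 1)), and r was 0.87 over the 9 libraries without hlh-30 RNAi. cpr-1 and cpr-4 had r = 0.91 over all 12 libraries but 0.20 over those 9: the likeness of this pair rested on the hlh-30 RNAi libraries. cpr-6 and cpz-1 had r = 0.90 over the 12 and 0.94 over the 9. The 3 genes most like cpr-4 were Y105C5B.5 (0.97), W08A12.2 (0.95) and kmo-1 (0.94), a gene of tryptophan breakdown, with r of 0.51, 0.48 and 0.34 over the 9. Y105C5B.5 averaged 251 RPKM in hlh-30 RNAi, 587 in atg-2 RNAi, 524 in atg-18 RNAi and 511 in glp-1 luc worms.

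The genes most like the other members were different ones. For cpr-3 this was fbxa-158 (r = 0.98, and 0.99 without hlh-30 RNAi), for cpr-5 ugt-61 (0.94 and 0.93), for cpr-6 scl-2 (0.91 and 0.91) and for cpz-2 dab-1 (0.97 and 0.95). For cpl-1 it was lipl-1, the lipase gene above (0.94, and 0.63 without hlh-30 RNAi). cpr-3 correlated negatively with the other tested members over the 12 libraries, from -0.67 with cpr-4 to -0.05 with cpz-2. Over the 9 libraries without hlh-30 RNAi its r with cpz-2 was 0.60.

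**Figure D4:**
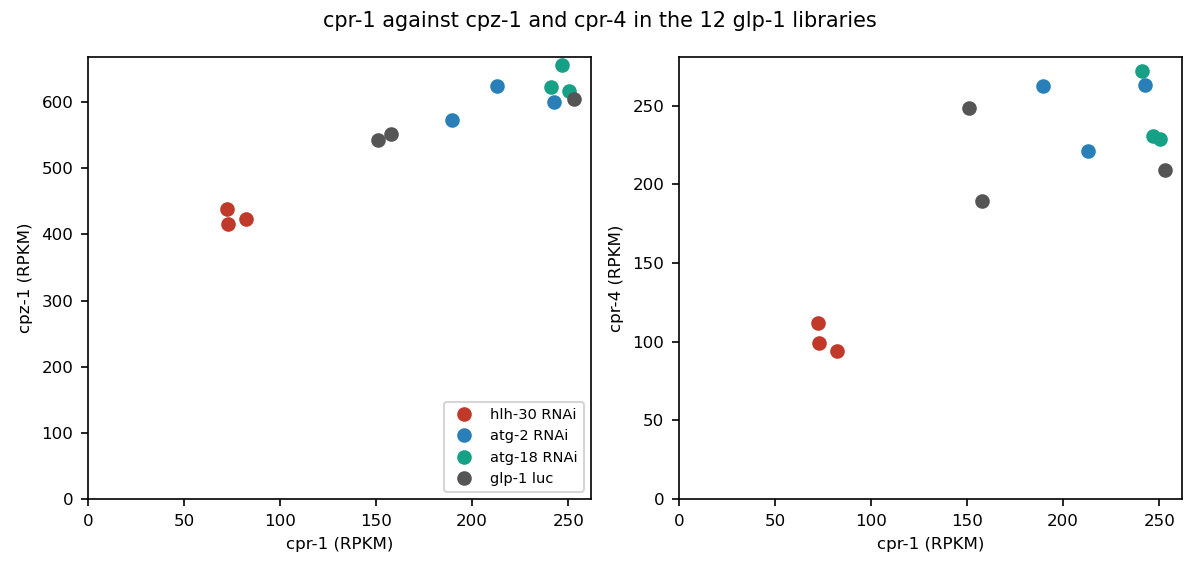
RPKM of cpz-1 (left) and cpr-4 (right) against RPKM of cpr-1 in the 12 glp-1 libraries, 1 point per library, coloured by group, on linear axes from 0. The 3 hlh-30 RNAi libraries lie apart at the lower left in both panels (cpr-1 at 72.2 to 82.2 RPKM), and the other 9 line up for cpz-1 (r = 0.87) but not for cpr-4 (r = 0.20). Both r values were computed on log2(RPKM + 1), not on the plotted RPKM.

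Spread between libraries of a group also differed by gene. The coefficient of variation in hlh-30 RNAi libraries was 0.838% for cpr-6, 2.60% for cpz-1, 7.29% for cpr-1 and 26.7% for cpr-3. In glp-1 luc libraries it was 6.73% for cpr-6, 5.85% for cpz-1, 30.5% for cpr-1 and 32.3% for cpr-3. In TU3401 worms library 2 was the lowest for cpr-1 to cpr-5 and cpz-2, and library 1 for cpr-6, cpz-1 and cpl-1. With 3 libraries against 3, an exact permutation test of 1 gene cannot go below p = 0.1, so none is given.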

How the data were processed

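RNA-seq of whole worms was deposited as 4 tables, each with RPKM values per library that the authors made and, per the file headers, their log2 fold change, their p-value, its false discovery rate and a score for ranking, the last not used. The glp-1 luc columns repeat between tables without a difference (0 differing values). The submitters' processing notes name bcl2fastq, TopHat2 2.1.1 and GRCh38, a human build, so no coordinates are used; the sources used here do not give the counting tool, annotation or strand use. Whole reads were recovered from the RPKM steps for 24615 of 24620 detected genes (99.98%, tolerance 0.0001), with 1 read of a 21-base gene as the unit, and give the depths. Intervals cover the spread between libraries only. All 15 pairs of libraries within groups differed beyond sampling noise (chi-square per degree of freedom 5.18 to 21.5).

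Tests were limma 3.58.1 (R 4.3.3) with a mean-variance trend on log2(RPKM + 1), a scale that understates changes of low genes, over genes with a mean of at least 1 RPKM, Benjamini-Hochberg adjusted over all genes, with calls at an adjusted p under 0.05. Each comparison used its 6 libraries, and direct RNAi contrasts the 12 glp-1 libraries. The code was tested on simulated data. The members and the 7 gene lists and 8 marker lists were chosen with earlier results of these data known. Named genes were all members, the most correlated gene of each (3 for cpr-4), at most 2 called genes per direction, list and comparison, and those said to be chosen later. Replicate numbers of the titles were taken to pair samples where same-numbered deviations from group means correlated above 0.1 in all 3 pairs: hlh-30 with atg-2 RNAi (r across genes 0.504, 0.272 and 0.291), hlh-30 with atg-18 RNAi (0.208, 0.239 and 0.216), atg-2 with atg-18 RNAi (0.151, 0.183 and 0.170) and atg-2 RNAi with luc (0.402, 0.264 and 0.200). Alternatives changed the pseudocount, filter, trend, scaling, libraries in the fit and replicate block. Sequences and promoter motifs are not analysed here. Python 3.11.15, pandas 2.3.3 and matplotlib 3.10.9 made tables and figures.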

Additional observations from a re-analysis of the deposited data

How the results depend on the processing

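In glp-1 luc against TU3401, scaling on neuronal and muscle genes left 3 members called higher and turned the log2 differences of cpr-1 (-0.49), cpr-5 (-1.16), cpz-1 (-0.27) and cpl-1 (-0.22); the shift of all genes is built into that scaling. In hlh-30 RNAi against luc, 0 members were called with no filter, without the trend, with that scaling or without the libraries numbered 1 (an alternative chosen after seeing the data), 3 with all 15 libraries in 1 fit (cpr-1, cpr-4 and cpz-1, among 56 called of 13383 genes), and 0 to 1 with single libraries left out. In hlh-30 against atg-18 RNAi, 3 members were called with no filter, without the trend or without the libraries numbered 1, 2 with the scaling (among 27 called of 12191 genes), and 3 to 4 with single libraries left out. The cause was not tested.

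With the replicate block, where numbers pair samples, 7 members were called in hlh-30 against atg-2 RNAi and 6 against atg-18 RNAi, and no other paired call changed. Where they fell short of the rule (glp-1 luc with TU3401, hlh-30 or atg-18 RNAi with luc), the block called 8, 1 (cpr-1 at adjusted p = 0.0494, while cpr-4 was at 0.0540 by limma) and 0 members, among 12255 of 13569, 46 of 12494 and 0 of 12441 genes called. Correlations were 0.358, 0.241 and 0.069 for hlh-30 RNAi with luc and 0.231, 0.214 and 0.084 for atg-18 RNAi with luc. Whether numbers pair samples there is undecided.

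Other reversals were of uncalled values. In atg-2 RNAi against luc, cpr-5 was at -0.38 to 0.035 with single libraries left out and 0.0037 without the libraries numbered 1; cpz-2 was at -0.058 with the scaling and -0.023 to 0.045 with libraries left out; cpl-1 was at -0.026 with the scaling and -0.0064 with quantile normalization. In atg-18 RNAi against luc, cpr-2 was at -0.034 to 0.19 and cpr-5 at -0.30 to 0.24 with libraries left out, and -0.033 and 0.21 without the libraries numbered 1. There cpz-2 was at -0.10 with the scaling and -0.026 to 0.047 with libraries left out, and cpl-1 at -0.0020 with the scaling. In atg-2 against atg-18 RNAi, cpr-4 was at -0.049 to 0.11, cpr-5 at -0.45 to 0.13 and cpz-2 at -0.034 to 0.047 over the 16 settings.

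Depth limits cpr-2, at 3 to 38 reads; for the other members the spread between 3 libraries is the limit.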
